A study of Mus musculus with 24 samples.

Results

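The genes described here are 10 genes of lipid efflux and of its control by liver X receptors (LXRs): Abca1, Abcg1, Abca2, Apoe, Apoc1, Nr1h2, Nr1h3, Mylip, Soat1 and Lrp1. They were chosen by name, and all 10 are among the 21965 genes counted and among the 17167 genes tested, which had a summed count of at least 10. Their messages were measured in the spinal cord of OL-Ribotag mice, in which a Cre recombinase active in myelinating cells and switched on with tamoxifen makes oligodendrocytes (OLs) express an HA-tagged ribosomal protein, RPL22. All groups carry the same Cre and tagged Rpl22 alleles and received tamoxifen. Naive mice had no injury and no sham surgery. The other groups had a contusive spinal cord injury (SCI) at T9 with an IH impactor set to 50 kdyn, and tissue was taken at 2, 10 or 42 days post-injury (dpi 2, dpi 10, dpi 42). The labels give female mice injured at 10 to 12 weeks of age, and the text of the study gives 8 to 10 weeks. Naive and dpi 42 tissue was collected on the same day, by the study's account. Mice of dpi 2 and dpi 10 thus differed from naive mice also in age and in time since tamoxifen. These cannot be told apart from the injury in comparisons with those 2 groups. Each of the 4 groups had 3 pools of tissue from 2 mice each. A pool gave 1 library of RNA immunoprecipitated with the tagged ribosomes (OL RNA) and 1 library of the lysate it came from (total RNA), which makes 24 libraries in 8 sets of 3. The tag is carried by most, not all, mature OLs of such mice. The Cre driver is also active in Schwann cells of the nerve roots.

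Cells cannot break down the sterol ring, so surplus cholesterol either leaves the cell or is stored as an ester. ABCA1 and ABCG1 hand cholesterol and phospholipid to apolipoprotein acceptors, chiefly APOE in the nervous system, and SOAT1 esterifies what stays behind for storage in droplets. LXR alpha (Nr1h3) and LXR beta (Nr1h2) are nuclear receptors for oxysterols that bind DNA with RXR partners at DR4 elements and turn on Abca1, Abcg1, Apoe and Mylip. MYLIP, also known as IDOL, is a ubiquitin ligase that limits lipoprotein uptake, and LRP1 takes up APOE-bearing particles. In injured white matter, myelin debris is a large source of cholesterol for the cells that take it up.

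Library totals were 25840127 to 32987841 counts, and 3 counts are 0.0909 to 0.116 CPM when divided by the library total alone. Levels below are CPM of the TMM-scaled library size. The 8 OL markers summed to 96310 to 157900 CPM in OL RNA against 19320 to 27880 CPM in total RNA. A few features of the libraries bear on the values below. Pool 2 of dpi 2 held 2414 and 2604 counts on Y-linked genes, against at most 13 in the other 22 libraries, although the labels give female mice. In 2 libraries of dpi 42 the title and the description name different kinds of RNA, and the description was followed. They are the libraries of pool 1, and their OL markers match the description. These summed to 103500 CPM in the library taken as OL RNA and 23340 CPM in that taken as total RNA. In pools 2 and 3 of dpi 42 the sums were 114500 and 137100 CPM in OL RNA and 22320 and 21090 CPM in total RNA. The 6 astrocyte markers summed to 6259 to 12190 CPM in 5 OL libraries (pool 3 of naive and of dpi 2, pool 2 of dpi 10, and pools 1 and 2 of dpi 42) and to 944.7 to 2551 CPM in the 7 other OL libraries. Markers of myeloid cells (10 genes) summed to 19.33 to 27.61 CPM in naive OL RNA, 77.14 to 101.5 at dpi 2, 223 to 257.5 at dpi 10 and 135.8 to 231.6 at dpi 42, which was 5.23% to 10.4% of their sum in the total RNA of the same pool. In total RNA the same sum went from 220.1 to 265.1 CPM in naive tissue to 1318 to 1545, 3333 to 4592 and 1907 to 2884 CPM at dpi 2, dpi 10 and dpi 42. Markers of Schwann cells (3 genes) summed to 1.481 to 634.1 CPM in naive OL RNA and 1194 to 1388 CPM at dpi 42, and fibroblast markers (4 genes) to 47.51 to 77.84 CPM in naive OL RNA and 419.6 to 479.4 CPM at dpi 10.

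Among the promoters of these genes, that of Abca1 holds the element through which LXRs are known to act on it, and it is shown for that reason. The window runs from 250 bases before to 50 after the start of transcription (RefSeq, GRCm38.p6, chr4:53159846-53160145, minus strand, 5′ to 3′ in the direction of transcription), and capitals mark the DR4-type element, which lies on the opposite strand.

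Abca1 promoter: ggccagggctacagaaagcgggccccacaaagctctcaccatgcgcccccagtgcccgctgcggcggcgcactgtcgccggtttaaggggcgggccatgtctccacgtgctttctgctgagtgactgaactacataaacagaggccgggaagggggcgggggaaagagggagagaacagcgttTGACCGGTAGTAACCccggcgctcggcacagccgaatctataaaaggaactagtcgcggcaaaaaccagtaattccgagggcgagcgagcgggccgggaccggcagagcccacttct

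The motif searched was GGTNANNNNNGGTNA on both strands (TNACCNNNNNTNACC on the other), 2 half-sites whose full 6-base forms stand 4 bases apart. It starts 67 bases before the start of transcription of Abca1 and is held by 0.718% of the 32851 promoter windows of this length. Windows were also given for Abca2, Apoe, Nr1h2, Nr1h3, Mylip, Soat1 and Lrp1, and the motif was found in none of them, which says only that these letters are not in these windows. Abcg1 and Apoc1 had no window.

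All 10 genes are protein coding, and the counts cover their exons (GENCODE M21, GRCm38). Abca1 lies at chr4:53030787-53159895 on the minus strand, Abcg1 at chr17:31057675-31117988 on the plus strand and Abca2 at chr2:25428703-25448540 on the plus strand. Apoe (chr7:19696109-19699188) and Apoc1 (chr7:19689481-19692660) are neighbours on the minus strand. Nr1h2 lies at chr7:44549616-44553951 and Nr1h3 at chr2:91184061-91202834, both on the minus strand. Mylip lies at chr13:45389742-45412022 on the plus strand. Soat1 (chr1:156424525-156474331) and Lrp1 (chr10:127538161-127621148) are on the minus strand.

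In naive tissue the 10 genes covered a wide range of levels in OL RNA. Per kilobase of exon, Apoe had a mean of 1070 CPM per kb and Abca2 of 404. The mean of Apoe was carried by pool 3, with 422, 524 and 2264 CPM per kb in pools 1, 2 and 3 against 437, 445 and 329 for Abca2, so their order depended on the pool. The means of the others were 51.1 CPM per kb for Abcg1, 25.2 for Nr1h2, 14.04 for Lrp1, 3.92 for Soat1, 3.00 for Abca1, 2.54 for Mylip, 1.34 for Apoc1 and 0.512 for Nr1h3. Apoc1 also rested on pool 3, with 0.395, 0.114 and 3.50 CPM per kb. The transporters Abca2 and Abcg1 were called enriched in OL RNA over total RNA at all 4 time points, and no other member was. With an offset for transcript length and GC content, Nr1h2 was also called enriched in naive tissue (log2 OL enrichment 1.06), at dpi 10 (0.68) and at dpi 42 (0.51). In naive tissue 2 of 10 members were called enriched and 3 called depleted, where a call means a log2 fold change past 0.5 with q under 0.05 (q, the p-value of edgeR's quasi-likelihood test adjusted by Benjamini-Hochberg over 17167 genes). Over all tested genes, 21.3% were called enriched and 27.2% depleted in naive tissue. At dpi 2 the members' counts were 2 and 4 (all genes 20.1% and 25.2%), at dpi 10 they were 2 and 7 (20.9% and 24.9%), and at dpi 42 they were 2 and 6 (20.6% and 24.9%). The median log2 OL enrichment of the 10 members was -0.19 in naive tissue, -0.82 at dpi 2, -1.66 at dpi 10 and -0.86 at dpi 42, beside -0.31, -0.24, -0.24 and -0.24 over all tested genes. Without the pools of the 5 libraries rich in astrocyte markers, 8, 9 and 9 members were called in either direction in naive tissue, at dpi 2 and at dpi 10. With all pools these counts were 5, 6 and 9. That fit left 1 pool at dpi 42, and the share of all genes called in it is not given here. Without pool 2 of dpi 2, 4 were called at dpi 2, and without the libraries with conflicting labels 6 were called at dpi 42. The shares of all genes called in these fits are not given here either, so the counts are not a result about the members alone.

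After SCI, Abca2, Abcg1 and Nr1h2 fell in OL RNA at dpi 2, and OL RNA carried more Abca1, Apoc1 and Mylip from dpi 10 on. In OL RNA against naive, 1 member rose and 3 fell at dpi 2 (over all genes 15.9% rose and 16.4% fell), 3 rose and 0 fell at dpi 10 (8.55% and 5.55%), and 5 rose and 1 fell at dpi 42 (13.7% and 13%). In total RNA 3 rose and 1 fell at dpi 2 (14.3% and 17%), 7 rose and 1 fell at dpi 10 (12.4% and 13.3%), and again 7 rose and 1 fell at dpi 42 (9.15% and 7.76%). Median log2 changes of the members were -0.50, 0.56 and 0.72 in OL RNA and -0.02, 1.14 and 1.06 in total RNA at dpi 2, dpi 10 and dpi 42, while the medians of all tested genes lay at 0 in OL RNA and between -0.10 and -0.08 in total RNA. The plot of fold changes sets the 3 kinds of comparison side by side. The comparisons against naive share the 3 naive pools, so their calls are not independent of each other. Without pool 2 of dpi 2 the counts at dpi 2 were the same, 4 called in OL RNA and 4 in total RNA. The log2 changes in OL RNA were then -1.70 for Abca2, -1.29 for Abcg1, -0.55 for Nr1h2 and 2.01 for Nr1h3 (q = 3.26e-08, 1.2e-05, 0.000777 and 0.00303). Without the 5 OL libraries rich in astrocyte markers, 5 and 6 members were called in OL RNA at dpi 2 and dpi 10, in place of 4 and 3. The share of all genes called in that fit is not given here, so these counts are not a result about the members alone. The 1 library left at dpi 42 is there assumed to vary like the other groups, and its log2 changes were 1.13 for Abca1, -0.92 for Abca2, 4.60 for Apoc1, 1.81 for Nr1h3 and 1.18 for Mylip. Without the 2 libraries with conflicting labels, 5 were called at dpi 42, with -0.94 for Abca2, 1.90 for Apoe, 3.13 for Apoc1, 1.80 for Nr1h3 and 0.92 for Mylip. For this fit and the fit without pool 2 of dpi 2, the share of all genes called is not given here either. When the fit held only the 6 libraries compared, calls in OL RNA were lost for Nr1h3 at dpi 2 (1.88, q = 0.0721) and dpi 42 (1.57, q = 0.129), Apoe at dpi 42 (2.18, q = 0.0617), Abca1 at dpi 10 and dpi 42 (q = 0.053 and 0.0761) and Apoc1 at dpi 10 and dpi 42 (q = 0.214 and 0.058).

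**Figure D1:**
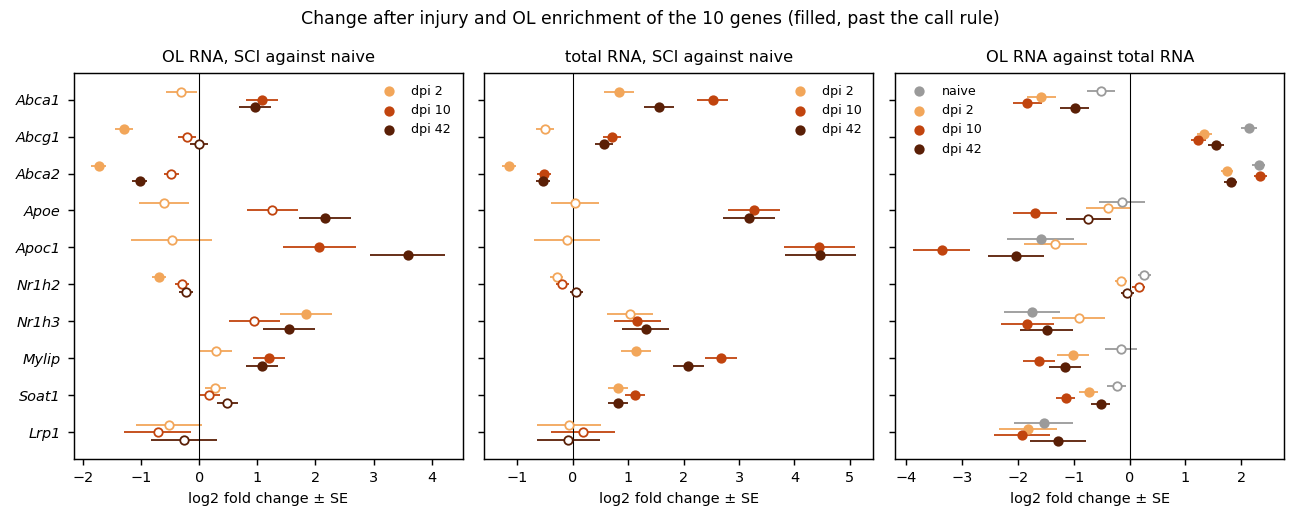
Log2 fold change with its SE for the 10 genes in OL RNA against naive (left), total RNA against naive (middle) and OL RNA against total RNA of the same pools (right), n = 3 pools per group. Filled points passed the call rule (log2 fold change past 0.5, q under 0.05); Abcg1 and Abca2 are the only genes to the right of 0 with filled points in the right panel, and 7 genes are filled to the right of 0 in total RNA at dpi 10 and dpi 42.

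Abca2, an ABC transporter of the endolysosome that is abundant in myelinating cells, fell most at dpi 2. OL RNA held 3643, 3711 and 2749.6 CPM of Abca2 in the 3 naive pools, 1095, 967 and 981 CPM at dpi 2, 2649, 2308 and 2264 CPM at dpi 10, and 1439, 1552 and 1966 CPM at dpi 42. Every injured library lay below every naive one. The log2 change was -1.73 ± 0.13 (SE, n = 3 pools; 3.32-fold lower, q = 2.11e-09) at dpi 2 and -1.03 ± 0.13 (q = 4.56e-06) at dpi 42, and at dpi 10 it was -0.48 ± 0.13 (q = 0.01), short of the size asked for, which it passed without naive pool 3 (-0.61, q = 0.00176). In total RNA Abca2 went from 652 to 702 CPM in naive tissue to 254 to 339 CPM at dpi 2, a log2 change of -1.14 ± 0.13 (q = 5.87e-07). In total RNA its later changes, -0.51 at dpi 10 and -0.53 at dpi 42, lay close to the limit of 0.5 and passed or missed it with the scaling, with -0.33 and -0.40 when libraries were scaled by their size alone. Its log2 OL enrichment was 2.31 ± 0.11 in naive tissue, 1.74 at dpi 2, 2.35 at dpi 10 and 1.81 at dpi 42.

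Abcg1, a cholesterol exporter, also fell at dpi 2 in OL RNA. OL RNA held 392, 401 and 325 CPM in naive tissue, 182, 151 and 123 CPM at dpi 2, 351, 318 and 298 CPM at dpi 10, and 306, 360 and 450 CPM at dpi 42. All 3 dpi 2 libraries lay below all naive ones, and the later groups overlapped with naive. The log2 change was -1.30 ± 0.16 (2.45-fold lower, q = 1.73e-06) at dpi 2, -0.21 ± 0.16 (q = 0.405) at dpi 10 and 0.00 ± 0.16 (q = 1) at dpi 42. In total RNA Abcg1 had 82.3 to 89.1 CPM in naive tissue and 47.4 to 67.7 CPM at dpi 2, with a log2 change of -0.50 ± 0.16 (q = 0.0166) that just missed the size limit and passed it in 4 of the 6 fits that left out 1 library. It then rose to 115 to 156 CPM at dpi 10 (log2 change 0.70 ± 0.16, q = 0.00159) and 116 to 132 CPM at dpi 42 (0.57 ± 0.16, q = 0.0124). Its log2 OL enrichment was 2.13 ± 0.14 in naive tissue, 1.34 at dpi 2, 1.23 at dpi 10 and 1.55 at dpi 42.

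Abca1, the exporter that loads lipid onto nascent apolipoprotein particles, rose in both kinds of RNA. In OL RNA Abca1 had 23.03, 22.4 and 47.8 CPM in naive tissue, 23.8, 18.9 and 32.6 CPM at dpi 2, 60.3, 64.8 and 72.3 CPM at dpi 10, and 75.6, 55.4 and 50.4 CPM at dpi 42. The dpi 10 and dpi 42 libraries all lay above the naive ones, and the dpi 2 libraries overlapped with them. Its log2 change was -0.31 ± 0.27 (q = 0.401) at dpi 2, 1.08 ± 0.27 (2.12-fold, q = 0.00727) at dpi 10 and 0.96 ± 0.27 (q = 0.00856) at dpi 42. The call at dpi 42 was lost without the 2 libraries with conflicting labels, with a log2 change of 0.77 (q = 0.0515), without naive pool 1 (0.73, q = 0.0737), without naive pool 2 (0.71, q = 0.076) and without dpi 42 pool 1 (0.72, q = 0.0731). In total RNA Abca1 had 39.6 to 42.7 CPM in naive tissue, 62.2 to 86.1 at dpi 2, 181 to 301 at dpi 10 and 91.2 to 160 at dpi 42, and no injured library overlapped with naive. These log2 changes were 0.83 ± 0.27 (q = 0.017), 2.52 ± 0.28 (5.76-fold, q = 6.94e-07) and 1.55 ± 0.27 (q = 0.000268). The call at dpi 2 was lost without dpi 2 pool 3 (0.71, q = 0.0702) and without naive pool 2 (0.80, q = 0.0555). Abca1 was depleted in OL RNA at dpi 2, dpi 10 and dpi 42, with log2 OL enrichment of -1.58, -1.83 and -0.99, and stood at -0.51 ± 0.25 (q = 0.11) in naive tissue, where it passed without pool 3 (-0.84, q = 0.0174). The depletion of Abca1 at dpi 42 was lost without pool 3 (-0.65, q = 0.0655).

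**Figure D2:**
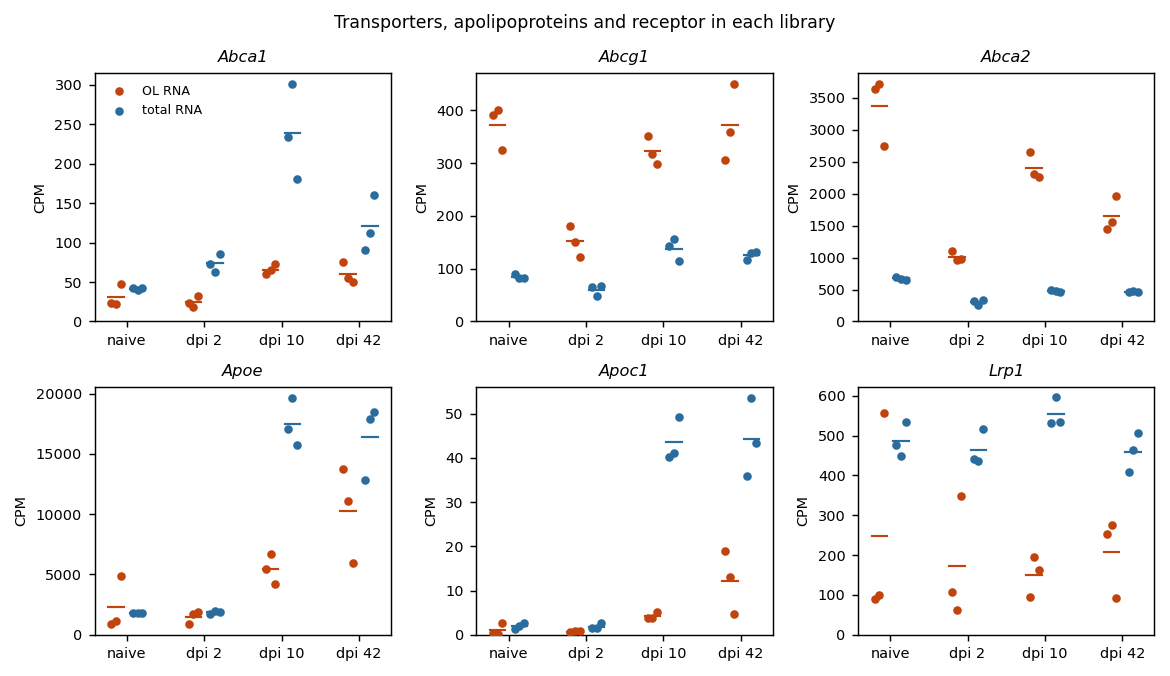
Level in CPM (vertical axis from 0) of 6 genes in each of the 24 libraries, by time point; points are libraries in the order of pools 1 to 3, and bars are means of 3. Abca2 and Abcg1 lie higher in OL RNA than in total RNA at every time point, Apoe and Apoc1 in total RNA step up between dpi 2 and dpi 10, and Lrp1 in OL RNA scatters from 61.9 to 557 CPM.

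Apoe, the main lipid carrier of the central nervous system, rose between dpi 2 and dpi 10. Apoe in OL RNA was at 902, 1119.6 and 4841 CPM in naive tissue, 856, 1749 and 1904 CPM at dpi 2, 5487, 6685 and 4236 CPM at dpi 10, and 13788, 11079 and 5981 CPM at dpi 42. Naive pool 3 stood far above the other naive pools and overlapped with dpi 10, while all dpi 42 libraries lay above it. Against naive, Apoe changed by -0.61 ± 0.43 (q = 0.294) at dpi 2, 1.26 ± 0.44 (q = 0.0505) at dpi 10 and 2.17 ± 0.45 (4.50-fold, q = 0.000824) at dpi 42 on the log2 scale. Naive pool 3 is 1 of the 5 OL libraries rich in astrocyte markers. Without it, Apoe changed by 2.43 (q = 1.04e-05) at dpi 10, and without all 5 by 0.30 (q = 0.302) at dpi 2, 2.27 (q = 4.59e-07) at dpi 10 and 2.55 at dpi 42, where 1 OL library was then left and the spread came from the other groups. In total RNA Apoe had 1804 to 1829 CPM in naive tissue, 1709 to 1955 at dpi 2, 15739.7 to 19652 at dpi 10 and 12853 to 18508 at dpi 42. The naive and dpi 2 libraries overlapped, and the later ones lay far above, with log2 changes of 3.26 ± 0.47 (9.61-fold, q = 1.79e-05) and 3.17 ± 0.47 (q = 4.65e-05).

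Apoc1, a small exchangeable apolipoprotein encoded next to Apoe, rose with it from a very low level. The OL level of Apoc1 was 0.294, 0.0846 and 2.601 CPM in naive tissue, where the lowest library held 2 counts. It was 0.567, 0.770 and 0.842 CPM at dpi 2, 3.81, 3.73 and 5.21 CPM at dpi 10, and 18.8, 12.99 and 4.73 CPM at dpi 42. All dpi 10 and dpi 42 libraries lay above the naive ones. Against naive, Apoc1 rose by 2.06 ± 0.63 (q = 0.0262) at dpi 10 and by 3.59 ± 0.64 (q = 0.000205) at dpi 42 on the log2 scale. The call at dpi 10 was lost without naive pool 1 (1.64, q = 0.113), without naive pool 2 (1.53, q = 0.0894) and without dpi 10 pool 3 (1.88, q = 0.0786). At dpi 2 the Apoc1 change was -0.48 ± 0.69 (q = 0.648) with all libraries and 1.85 (q = 0.0382) without naive pool 3, which holds most of the naive level. Without that pool the changes at dpi 10 and dpi 42 were 4.45 (q = 2.4e-05) and 5.91 (q = 5.72e-07). In total RNA Apoc1 had 1.25 to 2.76 CPM in naive tissue, 1.47 to 2.57 at dpi 2, 40.3 to 49.3 at dpi 10 and 35.8 to 53.4 at dpi 42, with log2 changes of 4.45 ± 0.64 (21.8-fold, q = 1.66e-05) and 4.47 ± 0.64 (q = 3.21e-05) at the later 2 times.

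The rise of both apolipoproteins in OL RNA was accompanied by a rise of myeloid and fibroblast markers. At dpi 10, 9 of 10 myeloid and 4 of 4 fibroblast markers were called higher in OL RNA. At dpi 42 these counts were 8 and 4. Of 6 astrocyte markers, 0 were called higher at dpi 10 (median log2 change -0.84) and 1 at dpi 42 (0.12). In naive pools OL RNA held 8.557% to 10.41% of the summed myeloid markers of total RNA. For astrocyte markers it held 23.96%, 23.62% and 176.1% in naive pools 1, 2 and 3. OL RNA of dpi 10 held 26.9% to 34.0% of the Apoe level of total RNA in the same pools and 9.06% to 10.6% of the Apoc1 level, beside 5.54% to 7.19% of the summed myeloid markers and 27.0% to 79.4% of the summed astrocyte markers. At dpi 42 the shares were 107%, 61.8% and 32.3% for Apoe, 52.6%, 24.3% and 10.9% for Apoc1, 8.86%, 5.23% and 8.03% for myeloid markers and 187%, 131% and 25.1% for astrocyte markers in pools 1, 2 and 3. The part of these cells in the levels of Apoe and Apoc1 in OL RNA was not tested, and in bulk RNA more cells of a type and more RNA per cell cannot be told apart. Apoe was depleted in OL RNA at dpi 10 (log2 OL enrichment -1.70 ± 0.40, q = 0.00291) and stood at -0.13, -0.39 and -0.74 in naive tissue, at dpi 2 and at dpi 42, which did not pass. Without the pools of the 5 OL libraries rich in astrocyte markers, Apoe was called depleted in naive tissue (-0.88), at dpi 2 (-0.53) and at dpi 10 (-1.77), and the 1 pool left at dpi 42 gave -1.63. Apoc1 was depleted in naive tissue, at dpi 10 and at dpi 42, with log2 OL enrichment of -1.59, -3.37 and -2.04, and at dpi 2 it stood at -1.33 ± 0.56 (q = 0.0644). The naive value lost its call without pool 1 (-1.39, q = 0.149) or pool 2 (-0.81, q = 0.26), and Apoc1 lost it in the fit without pairing (-0.97, q = 0.205).

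Nr1h2, the LXR present in most cells, fell in OL RNA at dpi 2. Nr1h2 in OL RNA was at 84.3, 88.5 and 80.9 CPM in naive tissue, 57.8, 41.3 and 57.7 CPM at dpi 2, 65.2, 68.1 and 73.8 CPM at dpi 10, and 63.4, 69.1 and 83.1 CPM at dpi 42. All dpi 2 and dpi 10 libraries lay below the naive ones, and dpi 42 overlapped. The log2 change of -0.69 ± 0.12 (1.62-fold lower, q = 8.24e-05) at dpi 2 passed the test. The changes of -0.29 at dpi 10 and -0.23 at dpi 42 (SE 0.12 each, q = 0.0955 and 0.139) did not. With an offset for transcript length and GC content both passed, at -0.68 and -0.67. In total RNA Nr1h2 ranged from 54.6 to 76.5 CPM over all groups, and none of its changes passed.

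Nr1h3, the LXR best known from macrophages and liver, was at a low level in naive OL RNA and rose at dpi 2. The 3 naive OL libraries held 0.588, 1.06 and 2.22 CPM of Nr1h3, followed by 3.02, 3.40 and 7.46 CPM at dpi 2, 2.99, 2.36 and 2.13 CPM at dpi 10, and 2.31, 6.09 and 2.93 CPM at dpi 42. The dpi 2 and dpi 42 libraries all lay above naive, while dpi 10 overlapped with it. The log2 change was 1.84 ± 0.44 (3.57-fold, q = 0.00232) at dpi 2, 0.94 ± 0.44 (q = 0.155) at dpi 10 and 1.54 ± 0.44 (q = 0.0101) at dpi 42. The call at dpi 2 was lost when only naive and dpi 2 OL libraries were fitted (1.88, q = 0.0721), and without naive pool 3 the change at dpi 10 passed (1.59, q = 0.0202). The Nr1h3 call at dpi 42 was lost without naive pool 1 (1.14, q = 0.0709), without naive pool 2 (1.36, q = 0.0541) and without dpi 42 pool 2 (0.97, q = 0.108). In total RNA Nr1h3 had 3.35 to 4.89 CPM in naive tissue, 6.50 to 9.07 at dpi 2, 7.65 to 9.46 at dpi 10 and 8.11 to 11.2 at dpi 42, with every injured library above naive. Those log2 changes were 1.03 ± 0.42 (q = 0.0601), 1.17 ± 0.42 (q = 0.0387) and 1.31 ± 0.42 (q = 0.0288), and leaving out 1 library took the call from 5 of 6 fits at dpi 10 and from 4 of 6 at dpi 42, with q up to 0.128 and 0.107. It was depleted in OL RNA in naive tissue (-1.75 ± 0.50, q = 0.00971), at dpi 10 (-1.83, q = 0.0057) and at dpi 42 (-1.49, q = 0.0183). Leaving out pool 1 took the call of Nr1h3 in naive tissue (-1.16, q = 0.0997), and leaving out pool 1 (-1.17, q = 0.113) or pool 3 (-1.49, q = 0.0616) took it at dpi 42.

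**Figure D3:**
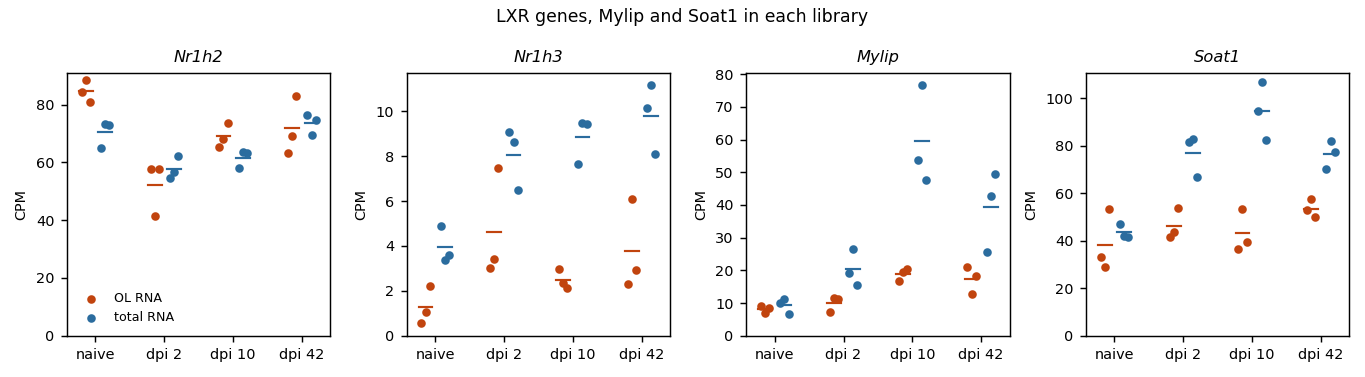
Level in CPM (vertical axis from 0) of Nr1h2, Nr1h3, Mylip and Soat1 in each of the 24 libraries, by time point; points are libraries in the order of pools 1 to 3 and bars are means of 3. Mylip in total RNA reaches 47.7 to 76.8 CPM at dpi 10 against 16.9 to 20.4 CPM in OL RNA, and Nr1h2 stays between 41.3 and 88.5 CPM in all libraries.

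Mylip, the LXR-induced ubiquitin ligase that limits lipoprotein uptake, followed Abca1. Its OL level was 9.24, 6.81 and 8.57 CPM in naive tissue, 7.29, 11.6 and 11.2 CPM at dpi 2, 16.9, 19.4 and 20.4 CPM at dpi 10, and 20.9, 12.7 and 18.4 CPM at dpi 42. The libraries of dpi 10 and dpi 42 all lay above naive. The log2 change was 0.29 ± 0.28 (q = 0.454) at dpi 2, 1.203 ± 0.28 (2.30-fold, q = 0.00408) at dpi 10 and 1.08 ± 0.28 (q = 0.0047) at dpi 42. In total RNA Mylip had 6.59 to 11.3 CPM in naive tissue, 15.4 to 26.5 at dpi 2, 47.7 to 76.8 at dpi 10 and 25.7 to 49.3 at dpi 42, without overlap with naive. The log2 changes were 1.14 ± 0.27 (q = 0.00233), 2.68 ± 0.29 (6.41-fold, q = 4.58e-07) and 2.08 ± 0.28 (q = 1.65e-05). Its log2 OL enrichment was -0.15 ± 0.29 (q = 0.699) in naive tissue and was called negative after SCI, with -1.02 at dpi 2, -1.63 at dpi 10 and -1.16 at dpi 42, of which the first lost its call without pool 1 (-0.83, q = 0.0822) or pool 2 (-0.93, q = 0.06) of dpi 2 and the last without pool 2 of dpi 42 (-0.86, q = 0.055).

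Soat1, the enzyme that esterifies cholesterol, rose in total RNA at each time and met the call rule at no time in OL RNA. Its OL level was 33.2, 28.8 and 53.2 CPM in naive tissue, 41.5, 43.7 and 54.0 CPM at dpi 2, 36.6, 53.4 and 39.5 CPM at dpi 10, and 52.8, 57.7 and 50.1 CPM at dpi 42. Each injured group overlapped with naive. The log2 change at dpi 42 was 0.48 ± 0.18 (q = 0.0484), below the size limit, and without naive pool 3 it was 0.73 (q = 0.00125). In total RNA Soat1 had 41.7 to 47.0 CPM in naive tissue, 66.7 to 83.0 at dpi 2, 82.5 to 107 at dpi 10 and 70.2 to 82.1 at dpi 42, with log2 changes of 0.82, 1.12 and 0.81 (SE 0.18 each, q = 0.00108, 7.15e-05 and 0.00253). Its log2 OL enrichment was -0.23 (q = 0.287) in naive tissue and -0.74, -1.14 and -0.52 at dpi 2, dpi 10 and dpi 42, where all 3 passed. With an offset for transcript length and GC content the values at dpi 2 and dpi 42 were -0.27 (q = 0.184) and 0.00 (q = 1), and the Soat1 call at dpi 42 was also lost without pool 2 (-0.52, q = 0.0754) or pool 3 (-0.46, q = 0.104).

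Lrp1, the receptor that takes up APOE-bearing particles and myelin debris, was called at no time against naive. Its OL level was 89.4, 99.6 and 557 CPM in naive tissue, 108, 61.9 and 349 CPM at dpi 2, 95.5, 195 and 163 CPM at dpi 10, and 254, 275 and 91.7 CPM at dpi 42. All groups overlapped. In OL RNA the log2 changes were -0.52, -0.72 and -0.27 (SE 0.57 to 0.58, q = 0.522, 0.443 and 0.807). Their direction rested on naive pool 3, without which they were 0.81, 0.68 and 1.06 (q = 0.199, 0.365 and 0.0947). Without pool 3 of dpi 2, which is rich in astrocyte markers, the change at dpi 2 was -1.61 (q = 0.0328), and without all 5 such libraries it was -0.21 (q = 0.473). The 5 OL libraries rich in astrocyte markers had 195 to 557 CPM of Lrp1, and the 7 others 61.9 to 163 CPM, so these sets did not overlap. Soat1 was split in the same way, with 52.8 to 57.7 CPM in the 5 libraries and 28.8 to 50.1 CPM in the 7 others, whereas the ranges of the 8 other members overlapped. The split into 5 and 7 libraries was chosen after seeing the data, and the share of all genes it separates was not counted. The part of astrocyte RNA in these levels was not tested. In total RNA Lrp1 lay between 409 and 597 CPM in all 12 libraries. It was depleted in OL RNA at each time, with log2 OL enrichment of -1.54, -1.81, -1.93 and -1.28 (q = 0.0247, 0.0104, 0.00575 and 0.0491) in naive tissue and at dpi 2, dpi 10 and dpi 42. Without the pools rich in astrocyte markers the log2 OL enrichment of Lrp1 was -2.31, -2.37, -2.09 and -2.47, the last from 1 pool. The Lrp1 call was lost in naive tissue without pool 1 (-1.05, q = 0.198) or pool 2 (-1.17, q = 0.173), at dpi 2 without pool 1 (-1.68, q = 0.0666) or pool 2 (-1.30, q = 0.0972), at dpi 10 without pool 1 (-1.66, q = 0.0507), and at dpi 42 without any 1 of the pools (-1.61, -1.58 and -0.72, q = 0.0568, 0.0673 and 0.318).

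**Figure D4:**
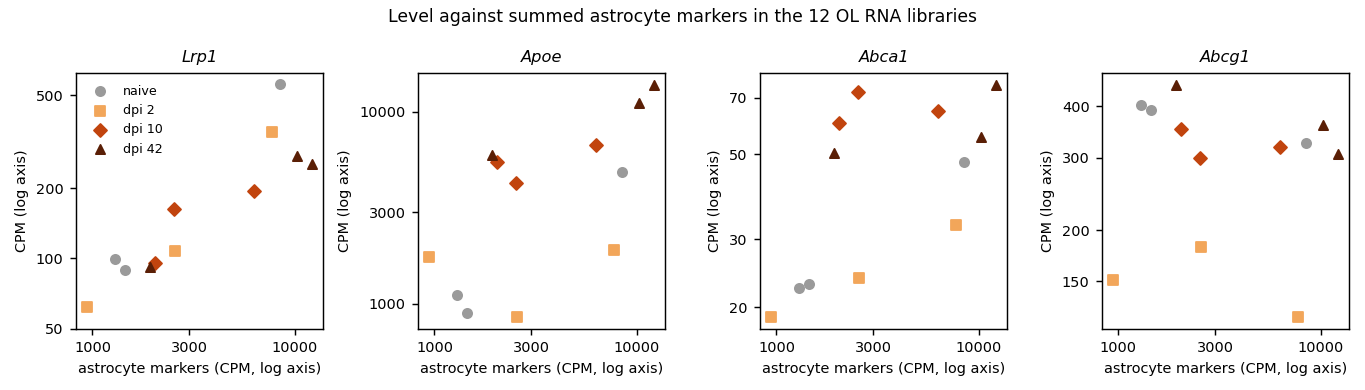
Level in CPM of Lrp1, Apoe, Abca1 and Abcg1 in the 12 OL RNA libraries against the sum of 6 astrocyte markers in the same library (both axes logarithmic), coloured by time point. The 5 libraries at 6259 to 12190 CPM of markers have 195 to 557 CPM of Lrp1 and the 7 others 61.9 to 163 CPM, and Abcg1 has 123 to 360 CPM in the 5 and 151 to 450 CPM in the 7.

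Whether OL RNA and total RNA changed by unequal amounts was tested as differential OL enrichment, the change in OL RNA minus the change in total RNA with the pool as a block. At dpi 2 the enrichment of the OL-enriched transporters fell, by 0.79 ± 0.19 on the log2 scale for Abcg1 (q = 0.0166) and by 0.57 ± 0.15 for Abca2 (q = 0.0269). At dpi 10 it fell for Abca1 (-1.33 ± 0.35, q = 0.0396), Abcg1 (-0.90 ± 0.19, q = 0.0142), Mylip (-1.48 ± 0.41, q = 0.0449) and Soat1 (-0.91 ± 0.24, q = 0.0395). Without the pools rich in astrocyte markers 3 members were called at dpi 2 and 5 at dpi 10, which added Abca1 (-0.76, q = 0.02) and Apoe (-0.90, q = 0.0268). The share of all genes called in that fit is not given here. In the contrast of dpi 10 Abca2 was at 0.03 ± 0.15 (q = 1). No member was called higher at any time, and none was called at dpi 42, where 3 members had an unadjusted p under 0.05 in edgeR and 2 (Abca2 and Abcg1) were called by DESeq2. Over all genes, 6.98% were called higher and 5.44% lower at dpi 2, 4.17% and 2.94% at dpi 10, and 4.07% and 3.34% at dpi 42. The share of called genes that were higher was 56.2%, 58.7% and 54.9% at dpi 2, dpi 10 and dpi 42 and 24.1%, 18.2% and 17.4% with a total RNA library as the reference of the scaling, which moved the median of all genes by -0.23, -0.23 and -0.22. The 4 calls at dpi 10 were near the limit, and leaving out 1 pool took the call of Abca1 in 5 of 6 fits, of Mylip in 5 of 6 and of Soat1 in 6 of 6 (q up to 0.164, 0.175 and 0.148), and of Abcg1 in 2 of 6 (q up to 0.073). The calls at dpi 2 were lost in 2 of 6 such fits for Abcg1 (q up to 0.0731) and 3 of 6 for Abca2 (q up to 0.121). All values of these fits kept their sign.

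The study's filtration for OL genes starts from genes whose log2 change in OL RNA is past 1. It keeps those whose enrichment moved past 1 the same way as the change (arm 1), and those enriched past 1 in naive OL RNA as well as in OL RNA of that day (arm 2). Abcg1 and Abca2 at dpi 2 and Abca2 at dpi 42 passed it as falling genes, all by arm 2. No member passed as a rising gene: Abca1, Apoe, Apoc1, Nr1h3 and Mylip had changes past 1 in OL RNA at 1 or more times and met neither arm. The shares of all genes given next are so small that most sets of this size would hold no rising gene. Over all tested genes the filtration kept 1.89% as rising and 1.57% as falling at dpi 2, 0.664% and 0.151% at dpi 10, and 1.04% and 0.623% at dpi 42. These results come from the edgeR values here. The study applied its filtration to DESeq2 values and reported more genes kept in each direction at each time. Which members pass may therefore differ there.

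Between injured time points, the members moved mainly from dpi 2 to dpi 10. In OL RNA 6 rose and 0 fell over this step (over all genes 9.55% rose and 7.92% fell): Abca1 by 1.39, Abcg1 by 1.085, Abca2 by 1.25, Apoe by 1.86, Apoc1 by 2.54 and Mylip by 0.91 on the log2 scale, of which Mylip lost its call without dpi 2 pool 1 (0.80, q = 0.0642). The same 6 genes rose in total RNA (2.72% and 2.93% of all genes rose and fell), Abca1 by 1.69, Abcg1 by 1.204, Abca2 by 0.63, Apoe by 3.23, Apoc1 by 4.55 and Mylip by 1.54. From dpi 10 to dpi 42 Abca2 alone was called in OL RNA, with a log2 change of -0.54 ± 0.13 (q = 0.0139; 1.97% and 3.04% of all genes rose and fell). That call was lost without dpi 10 pool 1 (-0.52, q = 0.0586), without dpi 42 pool 1 (-0.49, q = 0.0666) and without dpi 42 pool 2 (-0.54, q = 0.0565). In total RNA none of the 10 was called over this step by edgeR, where 3 had an unadjusted p under 0.05, and 0.0233% and 0.204% of all genes were called higher and lower. Abca1 had a log2 difference of -0.98 ± 0.27 (q = 0.144) there, which DESeq2 called (q = 0.0184), as did edgeR on the 12 total RNA libraries alone (q = 0.00449).

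Over the 24 libraries, the log2 levels of some genes rose and fell with those of the members. Here, nearest means the highest Pearson's r, which is given as a description over libraries that share their OL or total origin. Abca2 was nearest to Fnbp1 (0.995), Rnf13 (0.993) and Ncam1 (0.993). Abcg1 was nearest to Col11a2 (0.969), Padi2 (0.966) and Gna12 (0.965). Apoc1 was the gene nearest to Apoe (0.952), followed by Fmod (0.933) and C3 (0.896), and Apoc1 was nearest to Fmod (0.954), Apoe and 2410004P03Rik. Abca1 was nearest to Creg1 (0.942) and Man1c1 (0.941). Mylip was nearest to Unc93b1 (0.943), Gxylt2 and Clec12a. Soat1 was nearest to Ucp2 (0.953), Cebpa and Tlr2, and Nr1h3 to Tnfsf12 (0.947), Tgif1 and Creb3l1. Lrp1 was nearest to Jam2 (0.981), Ptprz1 (0.969) and Kank1 (0.965). Nr1h2 was nearest to Jph4 (0.866), Med16 and Prpf40b.

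Other genes of the pathway were read from 6 lists, whose counts stand beside the shares of all tested genes. In OL RNA these shares were 15.9% higher and 16.4% lower at dpi 2, 8.55% and 5.55% at dpi 10, and 13.7% and 13% at dpi 42. In total RNA they were 14.3% and 17%, 12.4% and 13.3%, and 9.15% and 7.76%. At the shares of dpi 2, a list of 14 genes would hold about 2 in each direction, so small counts in a list are near this background. Among 10 other lipid transporters of the ABC family, 0 rose and 4 fell in OL RNA at dpi 2, 1 rose and 2 fell at dpi 10 and again at dpi 42. Abca6 fell most at each time (-2.82, -1.43 and -1.93), and Abca9 rose at dpi 10 and dpi 42 (1.59 and 1.45). The naive OL level of Abca9 was low, at 13 to 36 counts (0.546 to 1.38 CPM). In total RNA 1 rose and 4 fell, 2 rose and 3 fell, and 2 rose and 2 fell, with Abca6 lowest (-1.72, -1.23 and -1.11), and Abca9 highest at dpi 10 and dpi 42 (1.70 and 1.43).

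Among 11 apolipoproteins and lipoprotein enzymes, 2, 3 and 5 rose in OL RNA at dpi 2, dpi 10 and dpi 42, 3, 4 and 3 rose in total RNA, and 0 fell in either. In naive OL RNA Apoc2, Apoc3, Apoc4, Apom and Apob had 0 counts and Apoa1 at most 2. In naive total RNA none of these had more than 14 counts. They had little or no room to fall, so the absence of falls is not a result about this list. Apod, a lipocalin carrier, rose most in OL RNA at dpi 2 (2.64), and Lpl, which releases fatty acids from lipoproteins, rose at all times there (1.22, 2.26 and 2.78) and in total RNA (3.55, 4.85 and 4.57). Apoc4, which lies in the same gene cluster as Apoe and Apoc1, had 0 counts in all naive libraries, 0.155 to 0.723 CPM in OL RNA and 4.42 to 8.25 CPM in total RNA at dpi 10, and 9.14 to 12.5 CPM in total RNA at dpi 42.

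Among 14 lipoprotein and scavenger receptors, 3, 2 and 2 rose and 3, 4 and 4 fell in OL RNA. Lrp4 was lowest in OL RNA at dpi 2 (-1.98), and Sorl1 in total RNA (-1.23). The scavenger receptor Msr1 was the highest called gene in total RNA at each time and in OL RNA at dpi 2 and dpi 42, and Cd36 in OL RNA at dpi 10. Msr1 had 0 counts in naive libraries and 2.71 to 6.35 CPM in OL RNA and 87.3 to 113 CPM in total RNA at dpi 2. Cd36 had 0 counts in naive OL RNA, at most 13 in naive total RNA, and 1.48 to 2.89 CPM in OL RNA and 28.7 to 42.8 CPM in total RNA at dpi 10. In total RNA 4, 4 and 3 of these receptors rose and 3, 2 and 2 fell.

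Among 7 LXR partners and coregulators, Rxrg, an RXR studied in OL lineage cells, rose in OL RNA at each time (2.42, 2.18 and 2.51). Its naive level was low in OL RNA, at 13 to 58 counts (0.55 to 2.22 CPM), against 6.21 to 7.93 CPM in naive total RNA. In OL RNA 3, 2 and 3 genes fell, with the coactivator Ncoa1 lowest at dpi 2 and dpi 10 (-1.10 and -0.81) and the corepressor Ncor1 lowest at dpi 42 (-0.88). In total RNA 0 rose and 3, 1 and 1 fell, Ncoa1 most (-1.07, -0.83 and -0.77). Among 9 other LXR targets, 1 rose and 3 fell in OL RNA at each time: Arl4c rose (1.04, 0.93 and 0.76), and Scd2 and Fasn fell at each time, Srebf1 at dpi 2, and Scd1 at dpi 10 and dpi 42. Scd2 was lowest at dpi 2 (-0.58) and Scd1 at dpi 10 and dpi 42 (-1.17 and -1.15). Srebf1 was not called at dpi 42, where its 302 to 448 CPM overlapped with the 225 to 356 CPM of naive OL RNA. In total RNA 1, 2 and 2 rose and 3, 4 and 2 fell, with Lpcat3 highest at dpi 2 (1.17), Mertk, an engulfment receptor, highest at dpi 10 and dpi 42 (2.02 and 1.57), and Ttc39b lowest at dpi 2 and dpi 10 (-1.26 and -1.21) and Fasn at dpi 42 (-0.70).

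Among 13 genes of cholesterol ester, lysosomal cholesterol and oxysterol handling, 3, 2 and 2 rose and 5, 2 and 3 fell in OL RNA, and 5, 5 and 5 rose and 3, 2 and 1 fell in total RNA. Npc1, which exports cholesterol from lysosomes, was lowest in OL RNA at dpi 2 (-1.63), and Stard4, a cholesterol carrier, at dpi 10 and dpi 42 (-1.39 and -2.08) as in total RNA (-1.48 and -1.45). Cyp46a1 was lowest in total RNA at dpi 2 (-0.99). Ch25h, which makes an oxysterol ligand of LXRs, had 0 counts in naive OL RNA and 3.40 to 12.9 CPM at dpi 2, 0.971 to 1.71 at dpi 10 and 0.559 to 1.02 at dpi 42. Soat2 had 0 counts in naive total RNA and 0.665 to 0.897, 0.519 to 0.742 and 0.458 to 0.599 CPM in total RNA after injury. In differential OL enrichment, Ch25h was the 1 gene called up and 3 were called down in this list at dpi 2, and the acid lipase gene Lipa was lowest at each time (-1.90, -2.31 and -1.85), with 0 up and 3 and 4 down at dpi 10 and dpi 42. In the other lists, Abca5 at dpi 2 (0.92) and Abcg4 at dpi 10 (1.39) were highest among the called ABC transporters. Lpl was the called gene among apolipoproteins and enzymes (-2.36 at dpi 2 and -2.62 at dpi 10). Among receptors Lrp6 and Scarb1 marked the ends at dpi 2 (-0.67 and -1.13), Lrp10 and Lrp6 at dpi 10 (-0.89 and -0.91), and Lrp10 was the least negative called gene at dpi 42 (-0.73). Rxrg was highest at dpi 2 among the partners (3.07). Arl4c (1.27) and Lpcat3 (-1.11) at dpi 2 and Scd1 (-0.61) at dpi 42 were called among the other targets.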

How the data were processed

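The mouse read counts were used as deposited: the authors checked polyA reads (FastQC 0.10.1), aligned them to mm10 by STAR, assigned them to genes in HTSeq 0.10.0 and deposited raw counts of 21965 genes in 24 libraries, without normalization. Members, gene lists and tests were chosen with earlier results of these data known. All 10 members were named. In the lists, the highest and lowest called gene per comparison and, for each member, the 3 most correlated genes were named. Genes with a summed count of at least 10 were tested in R 4.3.3 with edgeR 4.0.16 (TMM scaling, quasi-likelihood F test, Benjamini-Hochberg over 17167 genes). Changes came from a model with 8 group means. OL enrichment and its difference from naive came from a model with the 12 tissue pools as a block. The study states such a pairing for the difference. The pairing comes from the tissue numbers of the libraries. Deviations of OL and total RNA of the same pool correlated with r from -0.0109 to 0.137, and those of different pools of a group with r from -0.105 to 0.0502. At dpi 42 the same-pool values, -0.0109 to 0.02, lay within those of different pools, -0.028 to 0.0253. There the values do not bear out the pairing. CPM are TMM-scaled, and CPM per kb use exon length (GENCODE M21, GRCm38). SE are |log2 fold change| / sqrt(F). Replicates were separate pools and differed by more than sampling noise (median chi-square per gene 2.51 to 21.1). Scripts were tested on simulated data. DESeq2 1.42.0 was an alternative. Leaving out the 5 OL libraries rich in astrocyte markers, or pool 2 of dpi 2, was chosen after seeing the data. Some genes that the naming rule gave are not reported here.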

Additional observations from a re-analysis of the deposited data

Results flagged for a closer look

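These 6 results are listed because the change after SCI differed between OL RNA and total RNA in a test of the difference itself, edgeR's quasi-likelihood test with the tissue pool as a block and 3 pools per group. At dpi 2 the log2 differential OL enrichment was -0.7908 for Abcg1 and -0.5663 for Abca2. At dpi 10 it was -1.326 for Abca1, -0.9011 for Abcg1, -1.4769 for Mylip and -0.9109 for Soat1. All 6 differences were negative. Over all genes, 5.44% were called lower at dpi 2 and 2.94% at dpi 10. Leaving out 1 pool took the dpi 10 calls of Abca1, Mylip and Soat1 in most or all fits. The direction over all genes depended on the scaling. At dpi 10, 58.7% of called genes were higher, and 18.2% with a total RNA library as TMM reference.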

How the results depend on the processing

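Of the 80 member values that passed the call rule, 1267 of 1402 alternative fits kept sign and call, 135 lost the call and 0 reversed sign; of the 90 others, 93 of 1638 fits made a call. Counts below are numbers of the 10 members called. The shares of all genes called in the same fits are not given, so a moved count is not a result about the members alone. With library sizes alone, differential OL enrichment at dpi 10 went from 4 to 1. With the length and GC offset, differential enrichment at dpi 2 went from 2 to 1, OL change at dpi 2 from 4 to 7 and OL RNA of dpi 42 against dpi 10 from 1 to 0. With only the groups compared, OL change went from 3 to 1 at dpi 10 and from 6 to 2 at dpi 42, differential enrichment at dpi 2 from 2 to 0, naive enrichment from 5 to 2, OL RNA of dpi 42 against dpi 10 from 1 to 0 and total RNA from 0 to 1. With a total RNA library as TMM reference, differential enrichment went from 2 to 4 at dpi 2 and from 0 to 2 at dpi 42. DESeq2 called 2 in differential enrichment at dpi 42 and 1 in total RNA of dpi 42 against dpi 10. The 12 OL libraries alone gave 0 for dpi 42 against dpi 10, and the 12 total libraries alone 1. Without the 2 libraries with conflicting labels, differential enrichment at dpi 42 was 1 and OL RNA of dpi 42 against dpi 10 was 0. Without the 5 OL libraries rich in astrocyte markers, OL change at dpi 10 was 6, naive enrichment 8, OL RNA of dpi 42 against dpi 10 was 0 and total RNA 1. With arm 1 alone the filtration kept 0 at dpi 2, against 2, and 0 at dpi 42, against 1.

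Leaving out 1 library or pool gave, at dpi 2, dpi 10 and dpi 42, 4 to 6, 2 to 6 and 4 to 7 for OL change and 4 to 5, 6 to 7 and 7 to 8 for total change. For differential enrichment the ranges were 0 to 5, 0 to 2 and 0 to 1. OL enrichment gave 2 to 8 in naive tissue, then 4 to 7, 8 to 9 and 4 to 6. Between dpi 10 and dpi 2 it gave 6 to 7 in OL RNA and 6 in each fit in total RNA, and between dpi 42 and dpi 10 it gave 0 to 2 and 0.

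The replicate numbers are shared across groups by name alone, and with them as a block OL change gave 4, 4 and 6 and total change 4, 7 and 8, where Apoe was called in OL RNA at dpi 10 (1.36, q = 0.0475) and Nr1h3 was not in total RNA at dpi 10 (q = 0.0528). Without the tissue pool as a block, OL enrichment gave 3, 6, 9 and 7 from naive to dpi 42 and differential enrichment 3, 5 and 0.

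Library sizes alone moved the median log2 OL enrichment of all genes by -0.51, -0.57, -0.58 and -0.50, and the share of calls that were higher from 44.0%, 44.3%, 45.6% and 45.3% to 22.6%, 16.5%, 18% and 20.5%. For OL change that share went from 49.3%, 60.6% and 51.3% to 63.8%, 76.8% and 65.7%, and for total change from 45.7%, 48.4% and 54.1% to 66.1%, 68.6% and 72.8%. With the offset it was 61.3%, 62.7%, 61.2% and 62.1% for OL enrichment (medians moved by 0.31, 0.30, 0.28 and 0.27), 39.9% and 38.6% for OL change and 34.8% and 38.1% for differential enrichment at dpi 10 and dpi 42 (against 58.7% and 54.9%), and 41.4% against 54.7% for OL RNA of dpi 10 against dpi 2. With a total RNA library as reference it was 48.7% and 38.3% for OL change at dpi 10 and dpi 42 and 58.2%, 65.6% and 71.1% for total change. Nr1h2 changed sign between scalings in OL enrichment at dpi 42, with -0.54 by library sizes and 0.51 with the offset. Each group has 3 pools, and the cause of these moves was not tested.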
